A study of Mus musculus with 8 samples.

Results

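The replication-dependent histone genes were examined in polyadenylated RNA from the mouse spinal cord. Members were the protein-coding genes whose symbol starts with Hist1h, Hist2h, Hist3h or Hist4h, which gave 67 of the 41325 genes in the deposited tables. They comprise 6 linker (H1), 18 H2A, 18 H2B, 12 H3 and 13 H4 genes. The Hist1 cluster on chromosome 13 holds 54 of them, the Hist2 cluster on chromosome 3 holds 10, the Hist3 pair lies on chromosome 11 and the single Hist4 gene on chromosome 6.

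The series compared a triple knockout of the miR-34/449 family with wild type in the context of spinal muscular atrophy. Its 8 libraries form 4 groups of 2, all at postnatal day 14: lumbar and thoracic cord of Mir34a-/-; Mir34bc-/-; Mir 449-/- mice (TKO) and the same segments of C57BL/6J mice (WT). The labels give no strain background, sex or litter for the knockout and do not say that libraries came from separate mice. The p-values therefore set group differences against the scatter of these libraries, and that scatter may be technical. Lumbar and thoracic libraries may share a mouse, while the mean of both segments treats all 8 libraries as independent. The kit used is stranded and picks out RNA with a poly(A) tail.

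Histones package DNA. H2A, H2B, H3 and H4 form the nucleosome core, and H1 binds the linker DNA between cores. Replication-dependent histone genes are known for being transcribed in S phase without introns and for mRNAs that end in a conserved stem-loop in place of a poly(A) tail. The stem-loop is bound by the protein SLBP, and cleavage after it is guided by the U7 small nuclear ribonucleoprotein. A library made from polyadenylated RNA is therefore a partial view of these genes: it registers the transcripts that carry a tail.

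The stem-loop sequences show what the members share at the 3′ end whether or not they had reads. The pattern GGNNCTNNNNAGNNCC, which reads the same on both strands, was searched on the transcript within 100 bases after the stop codon in GENCODE gene models on GRCm38. It was found in 46 of the 54 members with an annotated 3′ UTR, against 0.627% of the 21045 coding genes with one. The following 30-base stretches, with the 16 matching bases in capitals, come from 4 members with reads and 3 members with none.
Hist1h1c (chr13:23739505-23739534, plus strand): tccaaaaGGCTCTTTTCAGAGCCaccactc
Hist3h2ba (chr11:58949342-58949371, plus strand): acccaaaGGCTCTTTTCAGAGCCaccttcc
Hist1h2be (chr13:23585524-23585553, minus strand): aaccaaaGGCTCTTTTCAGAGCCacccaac
Hist1h4i (chr13:22040959-22040988, minus strand): acttaaaGGCCCTTTTTAGGGCCaccacaa
Hist1h2bf (0 reads; chr13:23573758-23573787, minus strand): acccaaaGGCTCTTTTCAGAGCCacctacc
Hist1h4f (0 reads; chr13:23551284-23551313, minus strand): tctcaaaGGCCCTTTTCAGGGCCacccact
Hist1h2bb (0 reads; chr13:23747196-23747225, plus strand): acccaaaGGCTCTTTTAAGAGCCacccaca
The same 16 bases stood in Hist1h1c, with 4027 reads, and in Hist1h2bf, with 0 reads. The form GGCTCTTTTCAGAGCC was held by 26 members, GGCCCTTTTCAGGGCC by 7 and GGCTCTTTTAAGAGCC by 6.

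The last 30 bases of 3 annotated transcripts of members with reads are shown with the polyadenylation signal AATAAA in capitals.
Hist1h1c end (chr13:23740338-23740367, plus strand): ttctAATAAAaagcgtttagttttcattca
Hist3h2ba end (chr11:58949504-58949533, plus strand): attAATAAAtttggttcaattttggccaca
Hist2h2be end (chr3:96223709-96223738, plus strand): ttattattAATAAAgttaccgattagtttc
The annotation ran 840 bases past the stem-loop in Hist1h1c and 169 bases past it in Hist3h2ba. No match to the pattern was found in the searched window of Hist2h2be or of Hist1h2bc, Hist1h2bq and Hist1h2br, which have spliced models.

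Few members accounted for most of the signal. Reads fell on 42 of the 67 members in at least 1 library, and 25 had 0 reads in all 8. A count of 0 allows up to 3 reads, or 0.153 to 0.174 CPM (read counts relative to library size after TMM scaling) in a single library, for counting error only. The members gathered 17096 reads in all, and the leading 2, 4 and 6 genes held 49.9%, 74.1% and 86.4% of them. By class, H2B took 56.1% of member reads, H1 25.9%, H2A 13.3%, H3 2.76% and H4 2.03%.

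Per length, 3 genes stood above the rest. Hist1h2bc, an H2B gene on chromosome 13 (23684199 to 23692908, plus strand, 2 exons), had a deposited RPKM of 23.3 ± 1.94 (SD over the 8 libraries). Hist3h2ba, an H2B gene on chromosome 11 (58948920 to 58949533), had 22.1 ± 7.49, and Hist1h1c, a linker histone gene on chromosome 13 (23738808 to 23740367), had 16.9 ± 9.53. Their order is within their spread.

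The leading genes of the other classes were lower. Hist3h2a led H2A with an RPKM of 6.43 ± 0.791, Hist1h4i led H4 with 1.86 ± 0.559 and Hist2h3c2 led H3 with 1.04 ± 0.343. Hist2h2be, an H2B gene of the Hist2 cluster, had 2.56 ± 0.322. The gap from Hist3h2a to Hist2h2be was wider than either spread, while Hist2h2be and Hist1h4i differed by less than the sum of their spreads. Members that are testis genes in mouse, Hist1h1t, Hist1h2aa and Hist1h2ba, were at 0 reads in all 8 libraries.

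**Figure D1:**
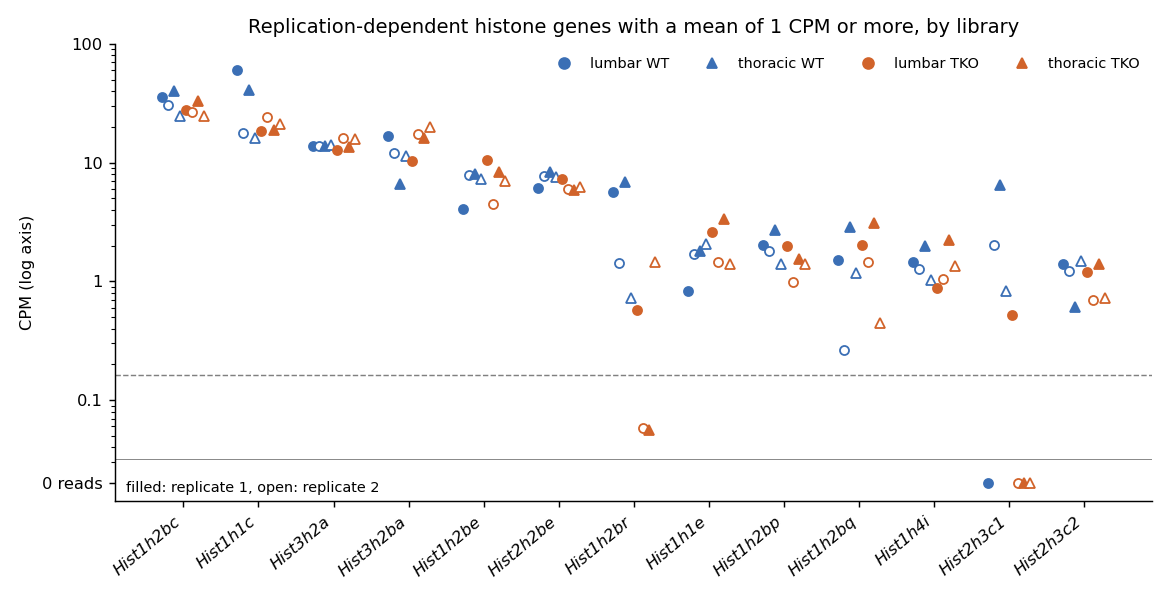
CPM of the 13 members with a mean of 1 CPM or more (y axis, log scale; points on the lowest line had 0 reads) in each of the 8 libraries; colour marks genotype, shape the segment, and filled points are replicate 1. The dashed line is the mean level of 3 reads. Hist1h1c was at 60.3 and 41.2 CPM in WT replicate 1 and between 16.3 and 24.1 CPM elsewhere.

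Several of these values cannot be assigned to a single gene. Hist3h2a starts at the same base as Trim17 and lies within it on the same strand (chromosome 11, 58954685 to 58956830), and none of its 2095 reads was counted as unique. Hist1h2bq and Hist1h2br are near-identical copies, with 1.26% and 7.94% of their reads counted as unique. Hist2h3c1 had 0 unique reads and shares its strand and span with the transcript Gm20634. Hist1h2be overlaps Hist1h1e on the same strand. In Hist1h2bp, 86.8% of reads lay in introns, against 8.69% in Hist1h2bc and 0 in Hist1h1c and Hist3h2ba.

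Annotated 3′ UTR length went with the reads. Of the 25 members with a 3′ UTR of 200 bases or more, 15 passed the filter on low counts and 1 had 0 reads, with a median of 106 reads. Of the 42 members with a shorter 3′ UTR or none, 2 passed and 24 had 0 reads, with a median of 0. The division at 200 bases was chosen after the values were seen. A gene model is itself built from sequenced transcripts, and reads past an annotated end are not counted, so gene models, UTR length and read counts are not independent. The signal AATAAA stood in the last 50 bases of 8 of the 17 members that passed the filter, of 6 of the 50 that did not, and of 67.8% of the 21045 coding genes with an annotated 3′ UTR. A gene was counted if any of its protein-coding transcripts held the signal. The 13 members without an annotated 3′ UTR, none of which passed the filter, could not be counted, so the shares are not over like sets.

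**Figure D2:**
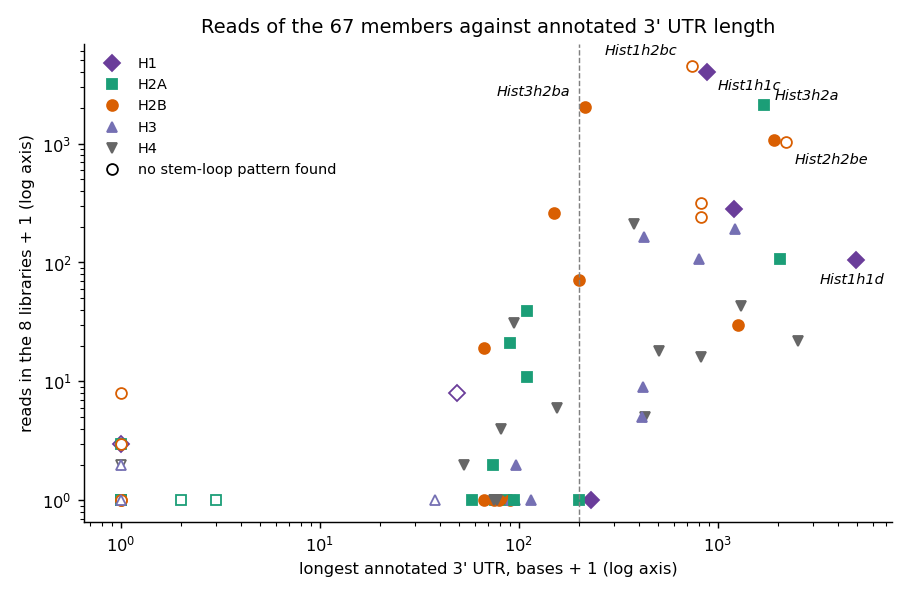
Reads summed over the 8 libraries plus 1 (y axis, log scale) against the longest annotated 3′ UTR in bases plus 1 (x axis, log scale) for the 67 members, with colour and shape for the class and open symbols where no stem-loop pattern was found. The dashed line marks 200 bases, left of which 24 of 42 members had 0 reads.

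Many H2A and H2B genes lie head to head on opposite strands. There were 12 such pairs, with start sites 176 to 306 bases apart. The H2B gene had more reads in 8 pairs and the H2A gene in 1, and both were at 0 reads in 3. Not all of the 8 are equally clear. In Hist1h2bp, 86.8% of reads lay in introns, and Hist1h2bn and Hist1h2bj had 7 and 18 reads. In Hist1h2bq and Hist1h2br, 1.26% and 7.94% of reads were counted as unique. In the pair that starts 251 bases apart, the level per length was 23.3 RPKM for Hist1h2bc and 0.274 RPKM for Hist1h2ac, with Hist1h2bc higher in all 8 libraries. Hist2h2be was at 2.56 RPKM, and Hist2h2ac, 239 bases away, was at 0 reads. The exception was Hist1h2ad, with 20 reads beside Hist1h2bf with 0. In all 12 pairs the H2A gene, and not the H2B gene, is overlapped by an annotated miRNA on the opposite strand. Those miRNA entries had 0 reads, and their part in how H2A reads were counted was not tested.

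The stretch between Hist1h2ac and Hist1h2bc is shown because this pair holds the most-read member and a partner with few reads. It is the RefSeq promoter of Hist1h2ac on GRCm38.p6, chr13:23683910-23684209, minus strand, and it reaches past the start of Hist1h2bc. Capitals mark the CCAAT box, the TATA element TATAAA and the octamer ATTTGCAT, each searched on both strands; these matches do not overlap one another.
Hist1h2ac promoter: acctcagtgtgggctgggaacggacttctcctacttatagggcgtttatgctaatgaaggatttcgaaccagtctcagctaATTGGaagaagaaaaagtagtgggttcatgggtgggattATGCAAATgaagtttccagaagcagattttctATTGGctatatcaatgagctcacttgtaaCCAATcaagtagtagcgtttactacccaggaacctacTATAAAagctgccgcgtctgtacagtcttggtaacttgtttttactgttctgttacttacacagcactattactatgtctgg
Over the 61 members matched to a RefSeq promoter, CCAAT was present in 85.2%, against 37.9% of 27025 promoters of the same length. TATAAA was present in 57.4% against 14.2%, and the octamer in 21.3% against 1.75%. The octamer was in 41.2% of H2A and 37.5% of H2B promoters and in 0% of those of H1, H3 and H4. The windows of a head-to-head pair can overlap and both strands were searched, so a single match can count for both genes. The H2A and H2B shares, and those over all members, are therefore not counts of separate sites. CCAAT was in 25.0% of H4 promoters and 100% of those of the other classes. Such matches describe the letters in the window and not binding.

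**Figure D3:**
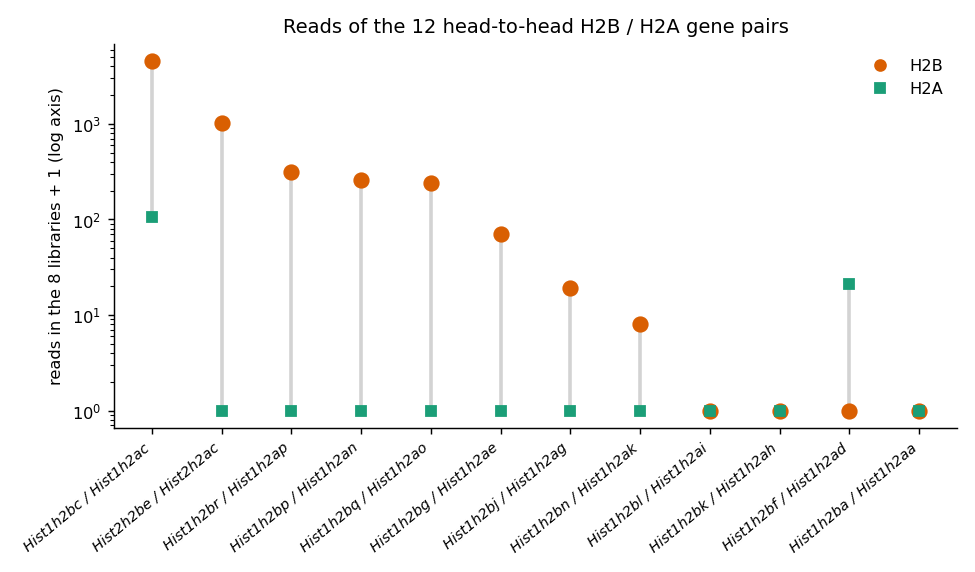
Reads summed over the 8 libraries plus 1 (y axis, log scale) for the H2B gene (circle) and the H2A gene (square) of each of the 12 head-to-head pairs (x axis). The H2B gene had more reads in 8 pairs, the H2A gene in 1, and 3 pairs had 0 reads on both sides.

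Depth ran from 16195212 to 20907819 gene reads a library, and 94.7% to 95.6% of these were counted as unique. Mitochondrially encoded genes took 4.99% to 16.8% of gene reads. All 10 neuronal and all 10 oligodendrocyte markers had reads, and their summed levels were 3960 to 5700 and 49800 to 76700 CPM. The 6 precursor entries of the deleted families had 0 reads in every library, so they check nothing here. Cdc20b, the host gene of Mir449, had 0 and 2 reads in lumbar WT, 0 and 1 in thoracic WT, 10 and 16 in lumbar TKO and 8 and 18 in thoracic TKO.

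The genotype comparison asked whether loss of the miR-34/449 family changed these transcripts. No member passed the test in the mean of both segments. The quasi-likelihood test of edgeR, adjusted by Benjamini-Hochberg over 17067 genes, called 0 of the 17 members that passed the filter on low counts, against 0.357% of all genes tested. DESeq2 and limma also called 0 members. The 4 TKO and 4 WT libraries overlapped in all 17 members, while 10.7% of all genes had no overlap. At an unadjusted p under 0.05, 4 of 17 members passed, against 19.1% of all genes. These were Hist1h2br, Hist2h3c1, Hist1h1d and Hist2h2aa2. Of these, Hist2h2aa2 passed the filter on low counts through TKO libraries, Hist2h3c1 through WT and Hist1h1d through WT replicate 1. Their place among the 17 thus depends on the difference tested, and the count of 4 is not independent of the filter. Hist2h3c1 and Hist2h2aa2 had 0 unique reads, and 7.94% of Hist1h2br reads were counted as unique. Hist1h1d and Hist1h2br were highest in both WT replicate 1 libraries. The median log2 fold change of the 17 was -0.23 (7 above 0 and 10 below), against 0.000403 over all genes. Hist2h2aa2, whose WT libraries were all at 0, lay above this median both as fitted and at the bound that 3 reads give. Setting it at the bound left the median at -0.226 and could not have moved it. The other 50 members had 321 reads between them and at most 18 in a single library.

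Linker histone genes varied within WT. Hist1h1c was at 60.3 and 17.9 CPM in lumbar WT (replicates 1 and 2), 41.2 and 16.3 in thoracic WT, 18.4 and 24.1 in lumbar TKO and 18.7 and 21.3 in thoracic TKO. Both WT replicate 1 libraries were above the other 6, and both WT replicate 2 libraries lay below all 4 TKO libraries. The fitted log2 fold change, TKO minus WT, was -0.70 (SE 0.383, adjusted p = 0.332 by edgeR), and it was 0.27 without both WT replicate 1 libraries, an alternative added after the values were seen.

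Hist1h1d, another linker gene, was also highest in both WT replicate 1 libraries, at a lower level. It was at 1.68 and 0.532 CPM in lumbar WT, 1.89 and 0.309 in thoracic WT, 0.311 and 0.232 in lumbar TKO and 0.444 and 0.112 in thoracic TKO. Its log2 fold change was -1.97 (SE 0.68, adjusted p = 0.198), and it did not pass the filter without both WT replicate 1 libraries. Hist1h1e, the third linker gene tested, was not highest in those libraries: it was at 0.838 and 1.7 CPM in lumbar WT, 1.79 and 2.06 in thoracic WT, 2.59 and 1.45 in lumbar TKO and 3.38 and 1.4 in thoracic TKO. The groups overlapped, and the log2 fold change was 0.49 (SE 0.356, adjusted p = 0.442). Hist1h1a and Hist1h1b had 7 and 2 reads in all.

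The H2B copies Hist1h2bq and Hist1h2br are best read as a sum, since reads can be split between them. The sum was 7.15 and 1.7 CPM in lumbar WT, 9.7 and 1.91 in thoracic WT, 2.59 and 1.51 in lumbar TKO and 3.16 and 1.91 in thoracic TKO. Again both WT replicate 1 libraries were highest and WT replicate 2 lay among the TKO libraries. Fitted apart, Hist1h2br gave -2.87 (SE 0.926, adjusted p = 0.18) and Hist1h2bq gave 0.40 (SE 0.614, adjusted p = 0.722), opposite in sign.

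In Hist1h2bc the same 2 libraries stood apart in intron reads. Total reads gave 35.9 and 30.5 CPM in lumbar WT, 39.9 and 24.8 in thoracic WT, 27.6 and 26.9 in lumbar TKO and 32.8 and 24.6 in thoracic TKO (log2 fold change -0.23, SE 0.174, adjusted p = 0.463). Intron reads were 116 and 7 in lumbar WT, 216 and 11 in thoracic WT, 15 and 5 in lumbar TKO and 10 and 12 in thoracic TKO. In the deposited RPKM, which counts exon reads, the 8 libraries lay between 20.6 and 25.9, at 24.9 and 25.2 in lumbar WT, 22.7 and 21.3 in thoracic WT, 22.1 and 23.8 in lumbar TKO and 25.9 and 20.6 in thoracic TKO. Without introns the WT replicate 1 libraries no longer stood above the rest.

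The WT replicate 1 libraries were the 2 highest in 5 of the 17 tested members: Hist1h2bc, Hist1h1c, Hist1h2br, Hist1h2bp and Hist1h1d. Over all genes tested the same held for 2.45%. This was counted after the values were seen, on total reads, which include introns. In RPKM, Hist1h2bc did not keep the pattern. Hist1h2bp was at 0.463 and 0.263 RPKM in lumbar and thoracic WT replicate 1, and at 0.631 in thoracic TKO replicate 2. These values rest on 6, 4 and 8 exon reads, too few to order the libraries. For Hist1h2br, 7.94% of reads were counted as unique. The WT replicate 1 libraries were at 10.5% and 16.8% mitochondrial reads, against 4.99% to 12.4% in the other 6. Their intron reads over all genes were 4.6% and 4.87%, against 4.39% to 6.69%. The part of library composition in their histone levels was not tested.

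**Figure D4:**
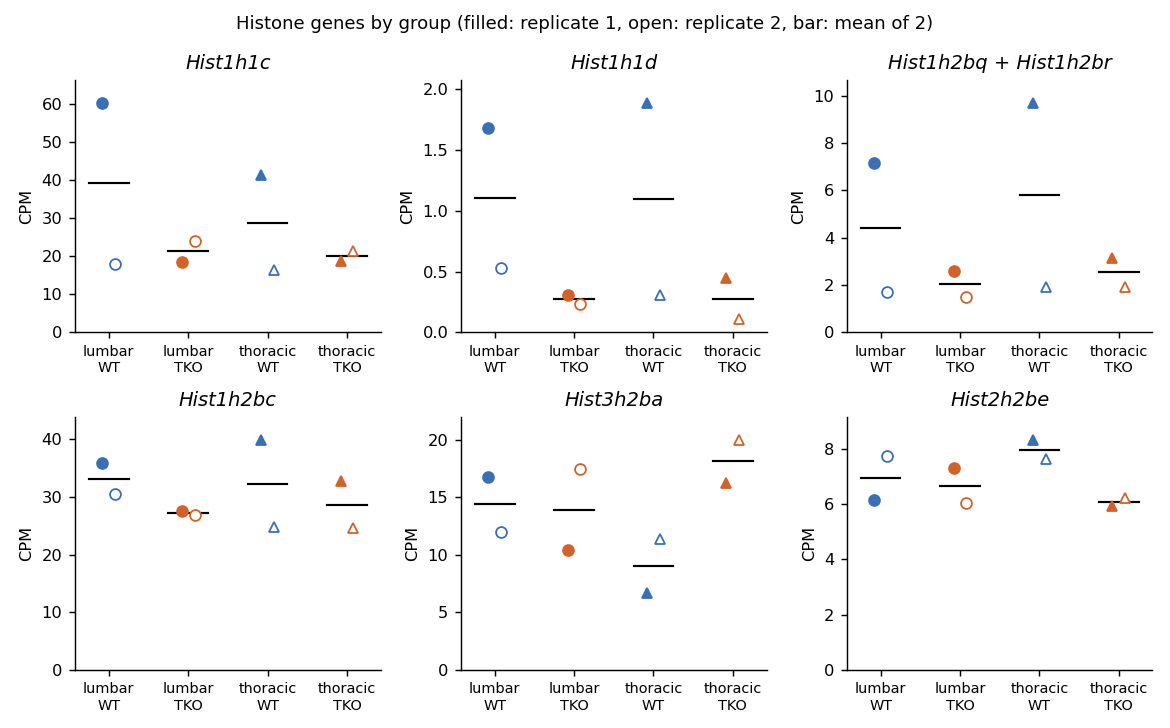
CPM (y axis, from 0) of 5 members and of the summed copies Hist1h2bq and Hist1h2br in the 4 groups (x axis); filled points are replicate 1, open points replicate 2, and bars the mean of 2 libraries. WT replicate 1 is highest for Hist1h1c, Hist1h1d and the summed copies. Hist3h2ba separates the thoracic groups, as did 54.2% of all genes tested.

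Over both segments together, the other H2B genes tested overlapped between genotypes. Hist3h2ba was at 16.8 and 12 CPM in lumbar WT, 6.64 and 11.4 in thoracic WT, 10.4 and 17.5 in lumbar TKO and 16.3 and 20.0 in thoracic TKO, and its log2 fold change was 0.48 (SE 0.234, adjusted p = 0.295). The genotypes overlapped in the lumbar cord and did not in the thoracic cord, where 54.2% of all genes tested had no overlap. Hist2h2be was at 6.15 and 7.76 CPM in lumbar WT, 8.32 and 7.62 in thoracic WT, 7.3 and 6.03 in lumbar TKO and 5.93 and 6.22 in thoracic TKO (-0.23, SE 0.155, adjusted p = 0.42). Its 95% interval ran from -0.58 to 0.13. Hist1h2be gave 0.18 (SE 0.289, adjusted p = 0.735) and Hist1h2bp -0.41 (SE 0.303, adjusted p = 0.446).

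H2A, H3 and H4 genes were sparse. Hist3h2a, read together with its overlap with Trim17, was at 13.7 and 13.7 CPM in lumbar WT, 13.7 and 14 in thoracic WT, 12.7 and 16.3 in lumbar TKO and 13.5 and 15.9 in thoracic TKO. WT libraries were almost level and TKO replicate 2 was the higher of each TKO group; the log2 fold change was 0.08 (SE 0.139, adjusted p = 0.747). Hist1h2ac gave 0.26 (SE 0.387, adjusted p = 0.712), Hist1h3d -0.26 (SE 0.298, adjusted p = 0.622), Hist2h3c2 -0.23 (SE 0.37, adjusted p = 0.738) and Hist1h4i -0.13 (SE 0.299, adjusted p = 0.814).

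Reads of 2 members rest on how overlapping or copied sequence was counted. Hist2h3c1 had 0 and 38 reads in lumbar WT, 126 and 16 in thoracic WT, 10 and 0 in lumbar TKO and 0 and 0 in thoracic TKO (adjusted p = 0.183). Summed with Gm20634, which shares its span, the level was 13.5 and 12.8 CPM in lumbar WT, 11.9 and 11.7 in thoracic WT, 11.3 and 9.16 in lumbar TKO and 15.3 and 11.1 in thoracic TKO. The sum overlapped between genotypes, and in thoracic WT replicate 1, where Hist2h3c1 was highest, Gm20634 was lowest at 5.51 CPM. Hist2h2aa2 had 12 reads in lumbar TKO replicate 2, 26 in thoracic TKO replicate 2 and 0 in the other 6 libraries (adjusted p = 0.231), none of them unique, and its copy Hist2h2aa1 had 6 reads in lumbar WT replicate 1 and 4 in thoracic TKO replicate 1.

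**Figure D5:**
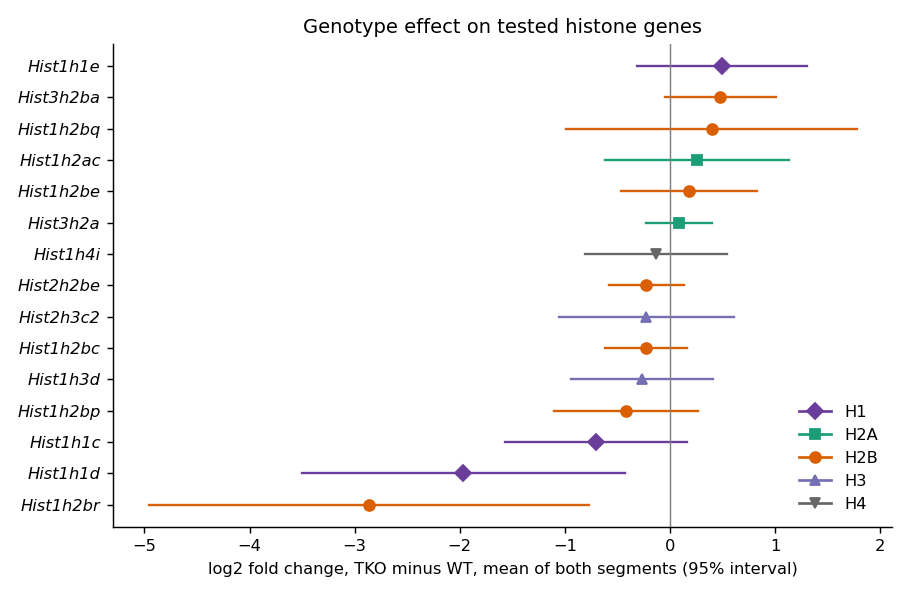
Log2 fold change, TKO minus WT, averaged over both segments (x axis), for the 15 tested members other than Hist2h3c1 and Hist2h2aa2. The 95% intervals were derived from the edgeR test statistic. Colour and shape mark the class. The values run from -2.87 for Hist1h2br to 0.49 for Hist1h1e, and 2 intervals exclude 0 before adjustment for multiple tests.

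Summed over all 67 members, the level was 156 and 102 CPM in lumbar WT, 147 and 93.8 in thoracic WT, 101 and 105 in lumbar TKO and 112 and 107 in thoracic TKO. The means were 125 ± 31.1 in WT and 106 ± 4.57 in TKO (SD, n = 4 libraries), and the groups overlapped. Without Hist1h1c they were 90.8 ± 12.3 and 85.6 ± 5.45. The H1 sum was 36.7 ± 21.2 in WT and 23.1 ± 1.91 in TKO, the H2A sum 14.6 ± 0.203 and 16.1 ± 1.99, the H2B sum 66.6 ± 9.84 and 62.7 ± 4.79, the H3 sum 4.4 ± 2.55 and 1.85 ± 0.506, and the H4 sum 2.34 ± 0.624 and 2.36 ± 0.77. The H3 sum includes Hist2h3c1, whose span is shared with Gm20634. Most of the H2A sum came from Hist3h2a, and 5.59% of H2A reads were counted as unique. In bulk tissue, fewer cells with a transcript and less transcript per cell cannot be told apart.

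By segment, no member was called either. In the lumbar cord 0 of 17 were called by edgeR, against 0.041% of genes, and 1 (Hist1h2br) passed an unadjusted p under 0.05, against 5.7%. Lumbar TKO and WT did not overlap in 5 members, all lower in TKO (Hist1h1d, Hist1h2bc, Hist1h2br, Hist1h4i and Hist2h3c2), against 34.5% of all genes with no overlap at 2 libraries a group. Among the 6 members with the smallest p, Hist1h2br gave -3.42 (SE 1.39, adjusted p = 0.859), Hist1h1d -1.98 (SE 0.964, adjusted p = 0.886) and Hist1h1c -0.88 (SE 0.542, adjusted p = 0.918), the last at 0.25 without lumbar WT replicate 1. Hist1h2ac and Hist1h1e gave 0.78 (SE 0.55) and 0.67 (SE 0.516), each with an adjusted p of 0.918, and 0.02 and 0.19 without lumbar TKO replicate 1. Hist2h2aa2 was also among the 6, with no fold given because lumbar WT was at 0 reads.

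In the thoracic cord 0 of 17 were called by edgeR, against 0.0352% of genes, and 2 (Hist2h3c1 and Hist3h2ba) passed an unadjusted p under 0.05, against 19.9%. Hist2h3c1 passed the filter on low counts through its WT libraries. The groups did not overlap in 4 members, Hist3h2ba higher in TKO and Hist1h3d, Hist2h2be and Hist2h3c1 lower, against 54.2% of genes. The log2 fold change was 1.00 for Hist3h2ba (SE 0.334, adjusted p = 0.211), Hist1h1d -1.96 (SE 0.958, adjusted p = 0.277), Hist1h2br -2.31 (SE 1.23, adjusted p = 0.302) and Hist2h2be -0.39 (SE 0.219, adjusted p = 0.325). For Hist1h2br the value was 0.07 without thoracic WT replicate 1. For Hist1h1d it was -0.14 without that library. The medians over the 17 members were -0.11 in the lumbar cord (-0.33 without lumbar TKO replicate 1) and -0.18 in the thoracic cord. The thoracic median was 0.08 without thoracic WT replicate 1 (11 above 0 and 6 below), -0.45 without thoracic WT replicate 2, -0.41 without thoracic TKO replicate 1 and -0.01 without thoracic TKO replicate 2.

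The difference between the lumbar and thoracic genotype effects was tested as well. edgeR called 0 members, against 0.00586% of genes, and 0 passed an unadjusted p under 0.05, against 3.5%. Hist3h2ba had the smallest p, with a lumbar minus thoracic difference of -1.05 (SE 0.469, 95% interval -2.11 to 0.01, adjusted p = 0.852). Hist2h3c1 had the second smallest (adjusted p = 0.852), with no fold given because thoracic TKO was at 0 reads. Hist1h2ac, Hist1h4i and Hist2h2be gave 1.04 (SE 0.772), -0.74 (SE 0.6) and 0.33 (SE 0.31), each at an adjusted p of 0.852, and Hist1h2bq gave 1.16 (SE 1.23, adjusted p = 0.856).

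Between segments, thoracic minus lumbar, edgeR called 0 members, against 0.082% of genes, and 0 passed an unadjusted p under 0.05, against 2.41%. No member separated the 4 thoracic from the 4 lumbar libraries, against 1.17% of genes. Hist1h4i had the smallest p, with 1.45 and 1.28 CPM in lumbar WT, 1.99 and 1.03 in thoracic WT, 0.88 and 1.04 in lumbar TKO and 2.22 and 1.35 in thoracic TKO. Its log2 difference was 0.52 (SE 0.3, adjusted p = 1 by edgeR), and the median of the 17 was 0.03. Hist1h2br, Hist1h2bq, Hist1h1e and Hist1h1c gave 0.65 (SE 0.955), 0.61 (SE 0.614), 0.41 (SE 0.356) and -0.26 (SE 0.382). DESeq2 and limma also called 0 members in the lumbar, thoracic, difference and segment contrasts.

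Genes of S phase and of histone supply were set beside the members. Over all genes tested edgeR called 0.357%, and 19.1% had an unadjusted p under 0.05. Of 32 tested DNA replication genes edgeR called 0, and 14 had an unadjusted p under 0.05, 31 lying below 0 with a median log2 fold change of -0.35. Rrm2, a subunit of ribonucleotide reductase, was at 11.1 ± 1.51 CPM in WT and 6.2 ± 1.43 in TKO (SD, n = 4; adjusted p = 0.114 by edgeR), and the replicative helicase subunit Mcm6 at 20.6 ± 1.27 and 11.6 ± 3.37 (adjusted p = 0.131). Of 24 mitosis genes edgeR called 0, and 21 had an unadjusted p under 0.05 (against 19.1% of all genes), all 24 lying below 0 with a median of -0.86. Mki67, a marker of cycling cells, was at 28.8 ± 4.17 and 14.9 ± 4.53 CPM (adjusted p = 0.0791).

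Of 32 tested genes of histone mRNA processing edgeR called 0 (against 0.357% of all genes), and 9 had an unadjusted p under 0.05 (against 19.1%), with 14 above 0 and 18 below and a median of -0.09. Lsm11, a protein of the U7 particle, was at 97.4 ± 5.73 CPM in WT and 64.2 ± 5.65 in TKO (SD, n = 4; adjusted p = 0.0573 by edgeR). Slbp, which binds the stem-loop, was at 32.4 ± 5.52 and 23.6 ± 3.76 CPM (adjusted p = 0.207).

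Replacement histones, made outside S phase from mRNAs with ordinary tails, also gave 0 calls by edgeR among 11 tested, with 4 above 0 and 7 below, 4 at an unadjusted p under 0.05 (against 19.1% of all genes) and a median of -0.11. H3f3b was at 250.0 ± 38.1 CPM in WT and 166 ± 21.9 in TKO (SD, n = 4; adjusted p = 0.123), and H2afz at 84.9 ± 8.04 and 64.7 ± 13.7 (adjusted p = 0.248). H2afj was at 6.56 ± 1.22 and 9.62 ± 1.43 CPM (adjusted p = 0.186). Of 23 histone chaperones edgeR called 0, and 6 had an unadjusted p under 0.05 (against 19.1%), 17 lying below 0, with Rbbp7 at 111 ± 15.3 and 75.8 ± 13.1 CPM (adjusted p = 0.142).

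Markers of other cell types moved with genotype in the same libraries. Of 10 meningeal fibroblast genes all were below 0 and edgeR called 2 lower, Lum and Dcn (adjusted p = 0.00471 and 0.0346), with a summed level of 388 to 766 CPM in WT and 133 to 329 in TKO. Of 7 tested erythroid genes all were below 0 and 1, Hba-a2, was called lower (adjusted p = 0.0356), with sums of 159 to 366 and 44.2 to 106 CPM. Of 10 oligodendrocyte genes all were above 0 and 1, Opalin, was called higher (adjusted p = 0.0304), and of 10 microglial genes 9 were above 0 and 1, Csf1r, was called higher (adjusted p = 0.0493). No neuronal, oligodendrocyte precursor, astrocyte, endothelial or lymphoid marker was called. No listed marker matched in the tables was at 0 reads in all libraries. Their part in the histone levels was not tested.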

How the data were processed

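Each of the 8 libraries had a table of whole-number counts of exon, intron, total and unique gene reads and of RPKM, deposited by the authors. Per the file headers, the deposited RPKM is per exon length and uses exon reads. Per the submitters' processing notes, reads were placed on mm10. How they were aligned and counted, with or without strand, and what makes a read unique is not given in the sources used here, so sense and antisense reads cannot be told apart. Total gene reads of 41325 genes were filtered with filterByExpr over 4 groups, scaled by TMM and fitted in 1 model with a mean per group in edgeR 4.0.16 (robust quasi-likelihood, R 4.3.3; common dispersion 0.0332). Benjamini-Hochberg adjustment ran over 17067 genes, with a threshold of 0.05. DESeq2 1.42.0 and limma 3.58.1 (on log2(RPKM + 0.5)) were alternatives, beside other filters, scalings, reads and left-out libraries.

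On simulated data for the genotype mean with 16871 genes, 74.5% of 98 genes changed 2-fold and 93.9% of 99 changed 4-fold were recovered, with 13 false calls. The changed genes were drawn at random from all genes that passed the filter. These rates are therefore not specific to the members, many of which had low counts. The members and gene lists were chosen with earlier results of these data known. Named members had a mean of 1 CPM or more, were among the 6 smallest p of a contrast, or led their class in RPKM; for other lists, genes with an adjusted p under 0.05 and up to 4 of the smallest p. Sequences came from GENCODE vM21 transcripts and RefSeq GRCm38.p6 promoters, and positions of all 67 members matched.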

Additional observations from a re-analysis of the deposited data

Results flagged for a closer look

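A library standing apart from the other 3 of its genotype was found for 2 members, among 34 sets of 4 libraries examined, where chance alone gives about 1 in 20. In the TKO libraries Hist2h3c1 was at 0.518 CPM in lumbar replicate 1 and at 0 reads in the other 3, and none of its reads was counted as unique. In the WT libraries Hist3h2a was at 14 CPM in thoracic replicate 2 and 13.7 CPM in the other 3, a gap that is large only against a very narrow range. Hist3h2a lies within Trim17 on the same strand, and none of its reads was counted as unique.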

How the results depend on the processing

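With a threshold of 0.05, 0 members were called in each of the 5 contrasts under all 20 settings tried for each, while the count over all genes for the genotype mean ran from 6 to 651 against 61. DESeq2 called 651 genes, an analysis without a filter 310, limma on RPKM 6, exon reads 12 and unique reads 104; with 1 library left out the count was 7 to 194. Correlations of same-numbered replicate deviations between groups ran from -0.33 to 0.442. Between lumbar and thoracic cord of a genotype, where a mouse could be shared, they were 0.442 in TKO and -0.208 in WT. The numbers were not taken as pairs, and the labels do not say whether libraries of one number share a mouse. For the genotype mean, a replicate block gave 0 members and 222 genes, and summing the segments per number 9 genes. Between segments, a replicate block within genotype gave 0 members and 46 genes, against 14 in the main fit. The median of members for the genotype mean lay between -0.327 and 0.0509. Only without both WT replicate 1 libraries (0.0509, 10 above 0 and 6 below) was it above 0. This omission, summing the segments and the block within genotype were added after the values were seen. Of 765 recomputed values of named members, 33 changed sign, all in members that were not called; the cause was not tested.

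For the genotype mean, leaving out both WT replicate 1 libraries gave 0.271 for Hist1h1c, 0.026 for Hist1h2bc and 0.19 for Hist1h4i, leaving out both TKO replicate 2 libraries gave 0.132 for Hist2h3c2 and -0.073 for Hist3h2a, and limma gave 0.159 for Hist1h2bp. With 1 library left out, the ranges were -0.114 to 0.498 for Hist1h2ac, -0.185 to 0.456 for Hist1h2be, -0.581 to 1.25 for Hist1h2bq, -0.329 to 0.143 for Hist1h4i, -0.489 to 0.162 for Hist2h3c2 and -0.012 to 0.177 for Hist3h2a.

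In the lumbar cord Hist1h1c ranged from -1.51 to 0.249 with 1 library left out and was 0.248 without both WT replicate 1 libraries. In the thoracic cord the same omission gave 0.088 for Hist1h2bp and 0.066 for Hist1h2br, limma gave 0.358 for Hist1h2bp, and the ranges were -0.868 to 0.089 for Hist1h2bp and -5.93 to 0.066 for Hist1h2br. The lumbar minus thoracic difference of Hist2h3c2 was 0.13 without both WT replicate 1 libraries and ranged from -1.24 to 0.053. Between segments, limma gave -0.01 and leaving out both TKO replicate 2 libraries -1.55 for Hist1h2br, and leaving out both WT replicate 1 libraries -0.046 for Hist1h2be; ranges were -0.67 to 0.301 for Hist1h1c, -0.055 to 0.551 for Hist1h2be, -0.38 to 1.47 for Hist1h2bq and -1.16 to 1.82 for Hist1h2br. The segment median lay between -0.0334 and 0.171 with 1 library left out. At this depth 50 members did not pass the filter on low counts and had no test in the main analysis.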
